A study of Rattus norvegicus with 16 samples.

Results

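The genes described here are 7 RNA-binding protein genes of 2 families, Elavl1, Elavl2, Elavl3 and Elavl4 and Rbfox1, Rbfox2 and Rbfox3, measured in RNA of rat spinal dorsal horn. They were chosen by name, and all 7 had a row in a deposited table of 8671 genes from an RNA immunoprecipitation (RIP). Their N4-acetylcytidine (ac4C) peaks are those carrying the same gene identifiers in 6 peak lists. The tissue came from rats with cancer-induced bone pain (CIBP, here bone cancer pain) and from normal rats, all of wild-type genotype. Each peak list came from 1 immunoprecipitated (IP) library and its input, giving 3 lists of bone cancer pain and 3 of normal rats. The RIP had 2 IP and 2 input libraries, all from bone cancer pain, so that it holds no normal tissue, with an antibody target not given in the sources used here. The labels call the replicates biological, but give no strain, age, sex or tumour and do not say whether a replicate is 1 rat or several. The bone cancer pain lists carry the abbreviation CFA in their names, whereas the labels give CIBP, and the grouping follows the labels.

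Elavl proteins (also called Hu proteins) bind stretches rich in U and AU in messenger RNAs and affect their stability, splicing and translation. Elavl1 (HuR) is made in most cell types, while Elavl2 (HuB), Elavl3 (HuC) and Elavl4 (HuD) are known as neuronal proteins. Rbfox proteins bind a short GCAUG-containing element, mostly in introns, and thereby favour or block the inclusion of nearby exons. Rbfox1 is found in neurons, heart and muscle, Rbfox2 is more widely expressed, and Rbfox3 is the NeuN antigen used to mark neurons. The mark ac4C is an acetylated cytidine that the enzyme Nat10 writes on RNA. The question that the peak lists address is which transcripts carry ac4C in the dorsal horn of rats with bone cancer pain and of normal rats.

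Among the listed markers of the tissue, the RIP table held 5 of 9 neuronal, 6 of 8 excitatory and 6 of 8 inhibitory dorsal horn, 2 of 4 motor neuron, 7 of 7 oligodendrocyte, 7 of 7 astrocyte, 5 of 7 microglial, 3 of 5 endothelial, 3 of 5 meningeal, 4 of 6 Schwann cell and sensory ganglion, 1 of 3 blood and 0 of 5 muscle and bone genes. Because that table kept only genes above a log2 fold of 1, a marker without a row may still have been expressed. The 6 peak lists held 1173 to 50417 peaks, and 899 to 1240 peaks at a false discovery rate (FDR) of at most 0.05. Bone cancer pain list 1 had 49281 peaks at 1 fold enrichment, 10.6, with an FDR of 0.0562, so the limit of 0.05 was used unless stated. The scale of the RIP values is not named in the table. For all 9 microRNA genes with a RefSeq length, signal multiplied by length came out in whole steps (to within 0.01 of a whole number) in each of the 4 libraries, whereas signal alone did so for 2 or 3 genes. The values thus behaved as reads per length. If they are scaled per kilobase and per library total in the usual way and 1 step is 1 read, the steps gave totals of 13149000 and 12930000 reads in IP 1 and 2 and 13979000 and 15292000 in input 1 and 2. The depth of the ac4C libraries is unknown.

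In the RIP, Elavl1 had the highest IP-over-input ratio of the 7 genes, and all members but Elavl1 lay below the middle of the table. Elavl1 (ENSRNOG00000001069) had signals of 26.8 and 27.5 in the IP libraries and 3.75 and 4.72 in the inputs. Elavl2 (ENSRNOG00000006853) had 34.0 and 29.9 in the IP libraries and 6.59 and 6.31 in the inputs. Elavl3 (ENSRNOG00000013752) had 58.6 and 59.6 in the IP libraries and 17.9 and 19.1 in the inputs. For these genes every IP value was above every input value, as the table's own threshold on the ratio favours. Elavl4 (ENSRNOG00000023601) had 18.4 and 21.0 in the IP libraries and 6.26 and 5.99 in the inputs, the lowest IP signal of all members. Rbfox1 (ENSRNOG00000002827), with the highest input signal of all members, had 63.9 and 58.7 in the IP libraries and 20.2 and 19.2 in the inputs. Rbfox2 (ENSRNOG00000004688) had 29.1 and 28.8 in the IP libraries and 7.61 and 9.86 in the inputs. Rbfox3 (ENSRNOG00000003386) had 34.4 and 34.9 in the IP libraries and 11.4 and 12.3 in the inputs, with IP signals close to those of Elavl2 and higher inputs.

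**Figure D1:**
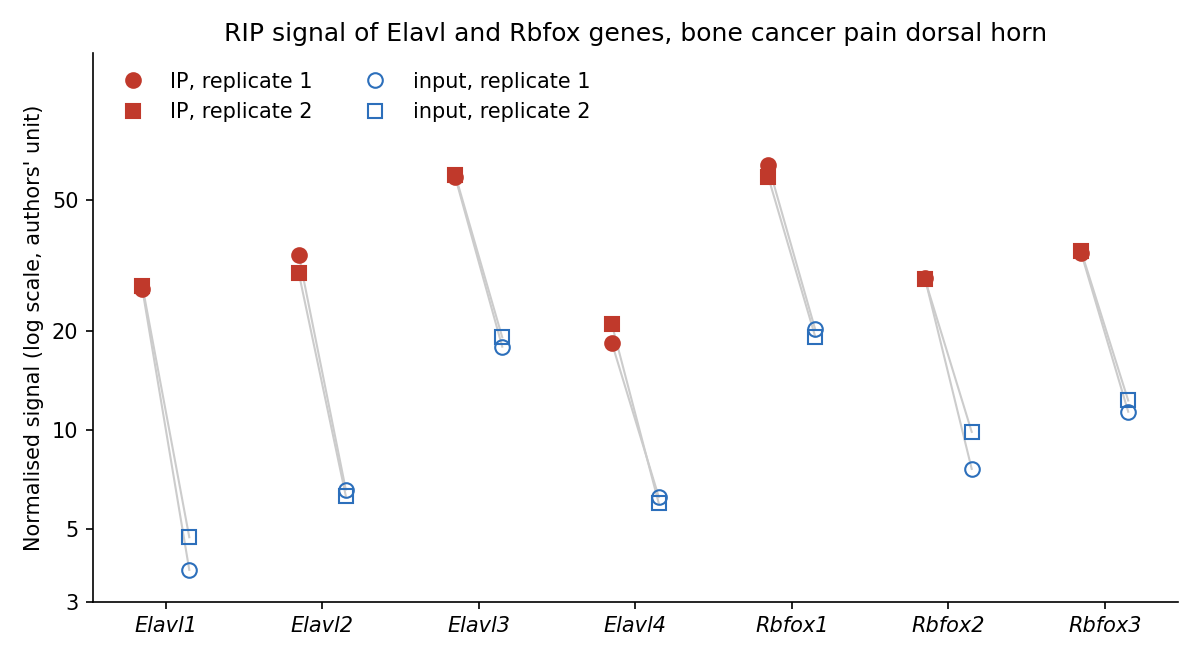
Normalised RIP signal (log axis) of each Elavl and Rbfox gene in the 2 IP libraries (filled) and the 2 input libraries (open), with grey lines joining the libraries of 1 pair. The lines are steepest for Elavl1, whose IP signals were 26.8 and 27.5 against inputs of 3.75 and 4.72, and Rbfox1 and Elavl3 stand highest in both kinds of library.

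Ordered by signal per length in the inputs, the members ran from Rbfox1 and Elavl3 through Rbfox3, Rbfox2, Elavl2 and Elavl4 down to Elavl1. The lower Rbfox1 input (19.2) was hardly above the higher Elavl3 input (19.1), and the lower Elavl2 input (6.31) hardly above the higher Elavl4 input (6.26). In each of these pairs the closest inputs lay nearer to each other than the SD between inputs, which was 0.703 for Rbfox1, 0.856 for Elavl3, 0.199 for Elavl2 and 0.193 for Elavl4 (n = 2). Rbfox2, with inputs of 7.61 and 9.86 (SD 1.59), also lay within that SD of the nearest inputs of Rbfox3 (11.4) and Elavl2 (6.59). Elavl3 and Rbfox3, and Elavl4 and Elavl1, stood further apart than their SDs. All 7 were above the table's median mean input signal of 3.35, with means from 4.24 for Elavl1 to 19.7 for Rbfox1. In bulk tissue such as this, fewer cells of a type and less RNA per cell cannot be told apart.

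The log2 folds of IP over input in the authors' deposited table were 2.67 for Elavl1, 2.31 for Elavl2, 1.67 for Elavl3 and 1.69 for Elavl4. The Rbfox genes had log2 folds of 1.64 for Rbfox1, 1.72 for Rbfox2 and 1.55 for Rbfox3 in the authors' deposited table. The authors' deposited table gave these members FDR values between 5.11e-87 (Elavl2) and 2.06e-33 (Rbfox2). The table kept rows only above a log2 fold of 1 (p-values up to 0.0488), so presence in it says nothing about how the members compare, and IP was not tested against input again. The median over all 8671 rows was 2.40, and 6 of the 7 members lay below it, against 4335 of all rows. The members' own median was 1.69. Elavl1 had a higher log2 fold than 73.3% of the rows and Elavl2 than 42.3%. The other 5 members stood among the lowest 10%, above 9.69% of rows for Rbfox2, 8.51% for Elavl4, 8.21% for Elavl3, 7.22% for Rbfox1 and 5.22% for Rbfox3.

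Both RIP pairs placed Elavl1 and Elavl2 above the other members. The log2 fold was 2.84 in pair 1 and 2.54 in pair 2 for Elavl1, and 2.37 and 2.25 for Elavl2. The widely expressed Elavl1 thus stood above every neuronal Elavl gene in each pair. Rbfox2 had 1.93 and 1.55, the widest difference between pairs of any member, and Elavl4 had 1.56 and 1.81, in the opposite order. Elavl3 had 1.71 and 1.64, Rbfox1 had 1.66 and 1.61, and Rbfox3 had 1.6 and 1.51. Among Rbfox2, Elavl4, Elavl3 and Rbfox1 each neighbour in the order overlapped the next, so their order was not resolved. Rbfox3 was lowest over both pairs, but its pair values overlapped those of Elavl4 and Rbfox2, so its place was not resolved either.

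**Figure D2:**
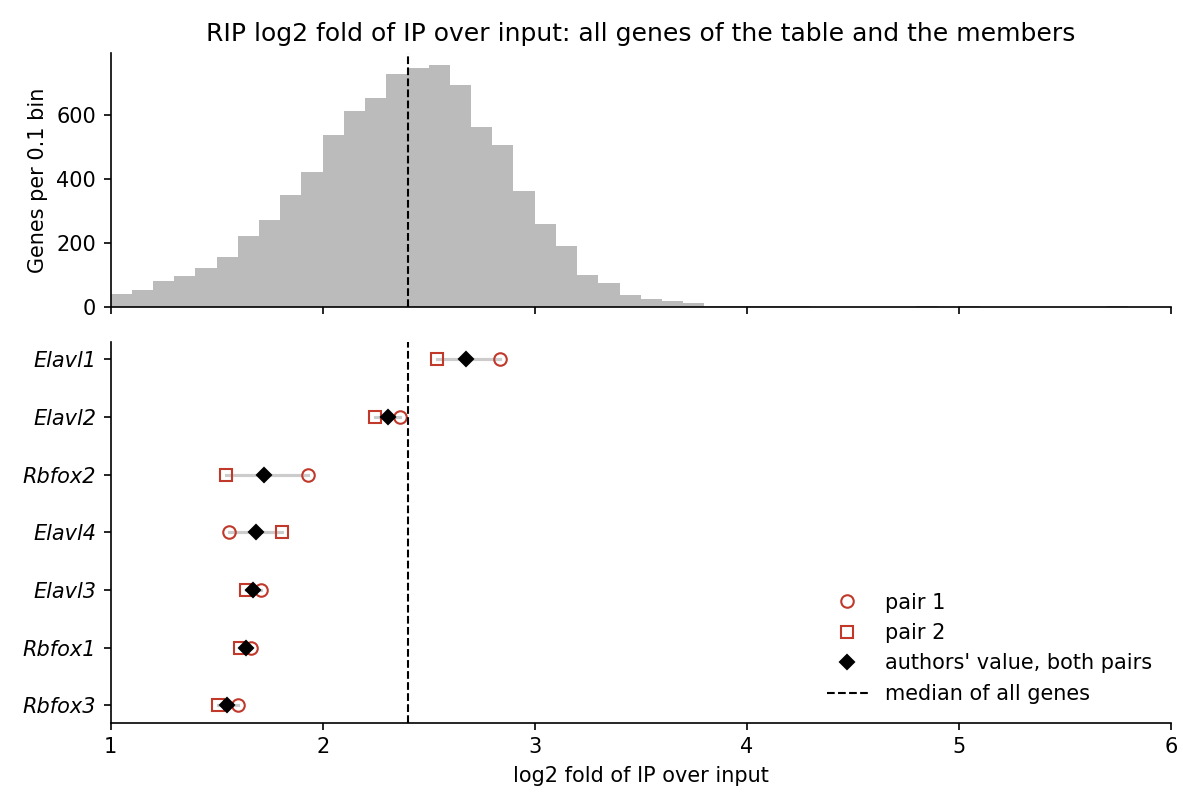
Upper panel, number of genes of the RIP table per bin of log2 fold of IP over input; lower panel, the log2 fold of each member in pair 1 and pair 2 and the authors' value over both pairs. The dashed line is the median of all genes (2.40); Elavl1 lies to its right, Elavl2 just to its left, and the other 5 members between 1.55 and 1.72.

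Genes with the most similar RIP values were sought over the 4 libraries by distance in log2 signal, among named protein-coding genes. The nearest to Elavl1 were Dnaja3, Rabggtb and Arhgef2, at distances of 0.0517, 0.0575 and 0.0681. Elavl2 was nearest to Flot2 (0.0726), and Elavl3 to the RNA helicase gene Ddx39b (0.0492). The nearest gene to Elavl4 was Dek (0.0705), to Rbfox1 the septin gene Sept3 (0.151) and to Rbfox2 the growth factor gene Fgf1 (0.158). Rbfox3 was nearest to Camta1 (0.114), with signals of 34.8 and 35.1 in the IP libraries and 10.9 and 13.1 in the inputs. Then came Cdc27 (0.143) and Nlgn3, a postsynaptic adhesion gene (0.169).

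For ac4C, 4 of the 7 genes had a peak in any list at an FDR of at most 0.05, against 36.8% of the RIP-table genes and 47.7% of those above the median input signal. These were Elavl4, Rbfox1, Rbfox2 and Rbfox3, with 8 peaks in all. Elavl1, Elavl2 and Elavl3 had none. Each bone cancer pain list held 2 members with a peak, and normal lists 1, 2 and 3 held 1, 0 and 1. The share of RIP-table genes with a peak was 8.59%, 11.3% and 7.85% for bone cancer pain lists 1, 2 and 3 and 8.23%, 9.58% and 9.31% for normal lists 1, 2 and 3. The exact permutation test of peak number per list passed an adjusted p of 0.05 for 0 of 3805 genes. No gene could have passed, as 3 lists against 3 give no p below 0.10 in this test. All member peaks lay on 1 strand per gene, the minus strand for each gene but Elavl1.

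Rbfox3, the NeuN gene, had a peak in all 3 bone cancer pain lists and in 1 normal list. Its fold enrichment was 14.1, 20.9 and 15.5 in bone cancer pain lists 1, 2 and 3, with FDR values of 0.00162, 0.0120 and 1.51e-07, against 16.7 in normal list 3, with an FDR of 0.0229. Normal list 2 held a further Rbfox3 peak with a fold of 9.79 and an FDR of 0.0646, just outside the limit, and normal list 1 held none. The folds of the groups overlapped, and none was high for its list. The Rbfox3 peaks ranked 515 of 919, 528 of 1240 and 601 of 899 by fold in bone cancer pain lists 1, 2 and 3 and 608 of 1003 in normal list 3. Tied folds took the best rank, and these folds were held by 20, 188, 4 and 147 peaks of their lists. Of the RIP-table genes 4.0% were called in 2 or more bone cancer pain lists (6.57% of those above the median input signal) and 0.565% in all 3. As in Rbfox3, 20 genes had 3 bone cancer pain lists and 1 normal list, and 14 had the reverse, 1 and 3. Rbfox3 peaks averaged 1.0 ± 0.0 per bone cancer pain list and 0.333 ± 0.577 per normal list (SD, n = 3 each; two-sided exact permutation p = 0.4, adjusted p = 1 over 3805 genes). With 3 lists against 3 the smallest p is 0.10.

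**Figure D3:**
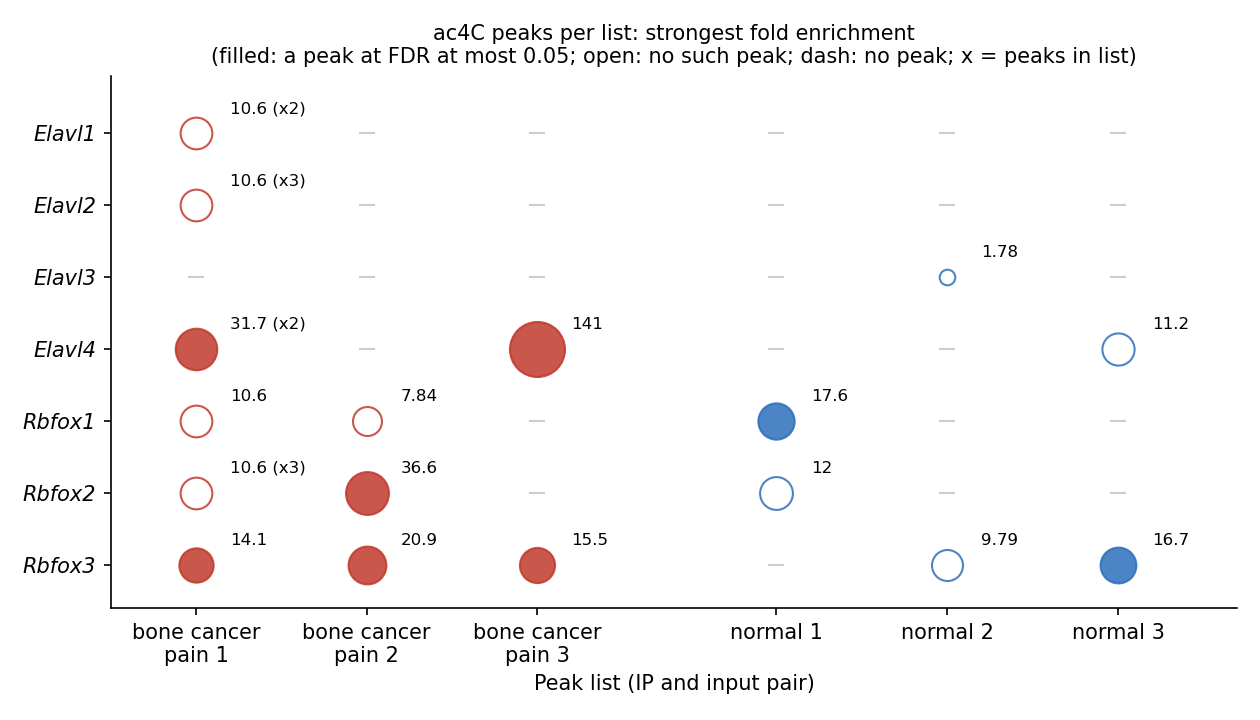
Strongest ac4C fold enrichment of each Elavl and Rbfox gene in the 3 bone cancer pain lists (red) and the 3 normal lists (blue), written beside each circle, whose size follows the log2 of the fold. Filled circles have a peak with an FDR of at most 0.05; Rbfox3 has 3 filled circles in bone cancer pain and 1 in normal, Elavl4 2 and 0, Rbfox2 1 and 0, and Rbfox1 0 and 1.

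The Rbfox3 peaks of the groups did not overlap along the gene, and those of bone cancer pain were themselves spread widely. Coordinates are of the rn6 build, chromosome 10, minus strand. In bone cancer pain the peaks ran from 107539451 to 107539658 in list 1, from 107523005 to 107523597 in list 2 (exon blocks of 59 and 120 bases) and from 107523508 to 107523773 in list 3 (blocks of 103 and 46 bases). Lists 2 and 3 shared 90 exonic bases, 60.4% of the shorter peak. In normal rats the peak of list 3 ran from 107517025 to 107517202, and the peak of list 2 outside the limit ran from 107517172 to 107520368 in 3 blocks, the 2 sharing 31 bases. The closest normal and bone cancer pain peaks were 2636 bases apart, and on the minus strand the normal peaks lay on the 3′ side. This gap was smaller than the spread within bone cancer pain, where the peak of list 1 lay 15853 and 15677 bases from those of lists 2 and 3. Taking the strongest peak per list, groups in separate spans were found for 18 of 62 RIP-table genes with a peak in all 3 bone cancer pain and at least 2 normal lists as deposited, or 29.0%, so a separation of this kind was common among such genes. No rn6 annotation was used, so the exons and untranslated regions holding these peaks are not named.

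**Figure D4:**
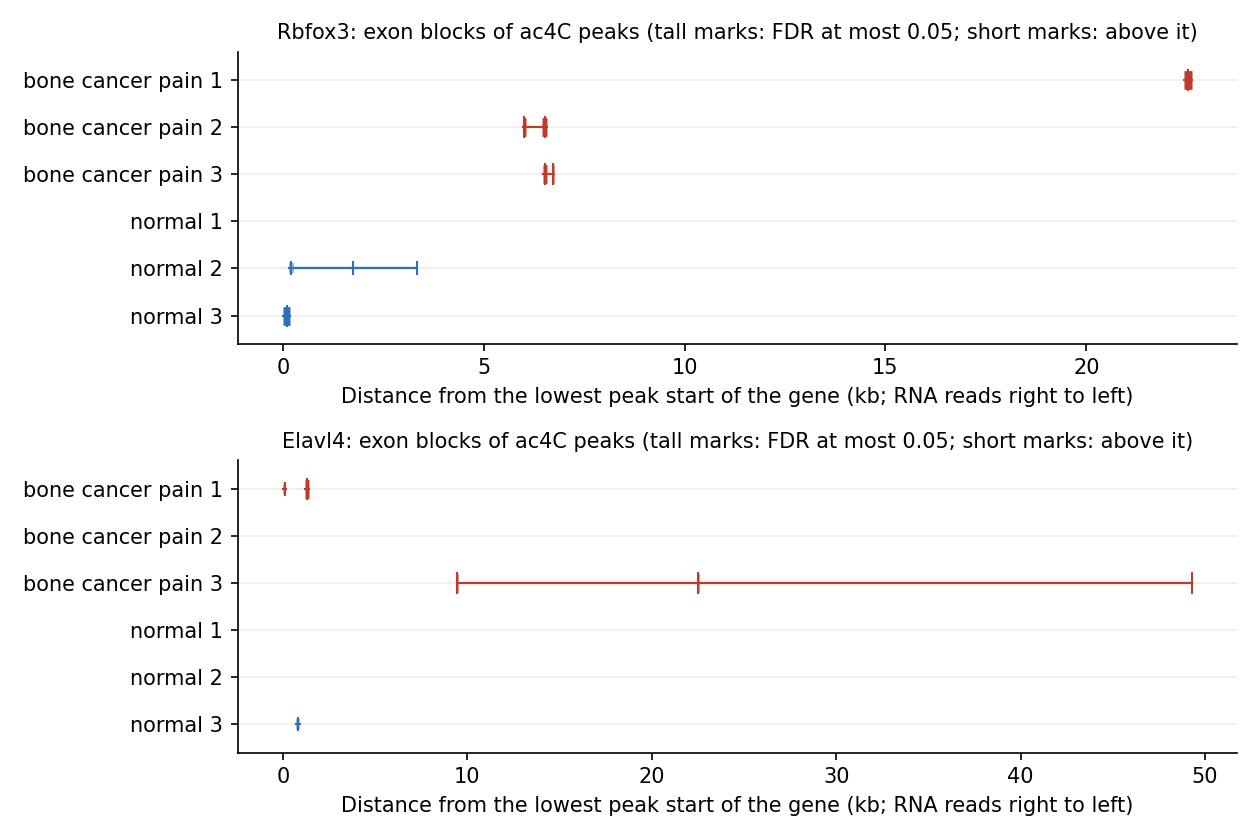
Exon blocks of ac4C peaks in Rbfox3 (upper) and Elavl4 (lower) by list, with bone cancer pain lists in red and normal lists in blue, drawn as distance in kb from the lowest peak start of the gene; thin lines join the blocks of a peak, tall marks are within the FDR limit of 0.05 and short marks outside it. The normal Rbfox3 peaks lie at the left, 2636 bases from the nearest bone cancer pain peak, while the normal Elavl4 peak lies between the pair of peaks of bone cancer pain list 1.

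Elavl4, the HuD gene, was the only member gained in bone cancer pain, where gained means called in 2 or 3 bone cancer pain lists and in 0 normal lists; 1.80% of the RIP-table genes were gained (2.65% of those above the median input signal). The fold was 31.7 in bone cancer pain list 1 (FDR 0.00891) and 141 in list 3 (FDR 1.58e-45), and list 2 and the 3 normal lists held no peak within the limit. The folds ranked 285 of 919 and 147 of 899 peaks in lists whose median folds were 16.9 and 28.7, and were held by 65 and 5 peaks. Elavl4 averaged 0.667 ± 0.577 peaks per bone cancer pain list and 0.0 ± 0.0 per normal list (SD, n = 3 each; two-sided exact permutation p = 0.4, adjusted p = 1 over 3805 genes). The call ended without bone cancer pain list 1 or list 3, with 0 members gained in each case, against 0.646% and 0.876% of the RIP-table genes. Without normal list 3, Rbfox3 joined Elavl4 as gained, against 2.36% of the RIP-table genes. No member was lost, that is, called in 2 or 3 normal lists and 0 bone cancer pain lists, against 1.71% of the RIP-table genes. No member reached 2 normal lists, which 3.89% of the RIP-table genes did (6.39% of those above the median input signal).

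A stricter FDR of at most 0.01 kept a peak in the same 4 members, against 33.4% of the RIP-table genes. Rbfox3 then kept the peaks of bone cancer pain lists 1 and 3 but not that of normal list 3. Elavl4 and Rbfox3 were then both gained (1.53% of the RIP-table genes) and both in 2 bone cancer pain lists (3.30%). At this limit 0 members were in all 3 bone cancer pain lists (0.484% of the RIP-table genes), 0 in 2 normal lists (3.18%) and 0 lost (1.46%).

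The 2 Elavl4 peaks did not share a place, and a normal peak just outside the limit lay beside 1 of them. On chromosome 5, minus strand, the peak of bone cancer pain list 1 ran from 130002570 to 130002809. The peak of list 3 ran from 130010800 to 130050669 as 3 exon blocks of 63, 104 and 14 bases, joined across introns of up to 26716 bases. Normal list 3 held a peak from 130002091 to 130002270, with a fold of 11.2 and an FDR of 0.0617, only 299 bases from the list 1 peak. This fold was the most common in normal list 3, held by 309 of its 1418 peaks. Bone cancer pain list 1 held another peak outside the limit, from 130001372 to 130001552, at an FDR of 0.0562. Its fold was the recurrent 10.6, held by 49281 peaks of that list. These 3 peaks from bone cancer pain list 1 and normal list 3 fell within 1438 bases. Counting peaks as deposited, Elavl4 had 2 bone cancer pain lists and 1 normal list, and was not gained.

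Rbfox2 had a peak within the limit in 1 list, bone cancer pain 2. It had a fold of 36.6, held by 57 peaks of the list, and an FDR of 6.17e-06, rank 242 of 1240. It ran on chromosome 7, minus strand, from 118207900 to 118332394 as blocks of 48, 51 and 51 bases over a span of 124495 bases. Normal list 1 held a peak at the same 3 places, from 118207930 to 118332424 with blocks of 18, 51 and 81 bases, a fold of 12 and an FDR of 0.0661. The peaks shared 120 of 150 exonic bases, so both lists called these places, with normal list 1 just outside the limit. The fold was higher in bone cancer pain list 2. Folds within the limit were also higher in that list, with a median of 20.9 against 15.6 in normal list 1. In bone cancer pain list 1, Rbfox2 had 3 peaks, all at the recurrent fold of 10.6.

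Rbfox1 had a peak within the limit in normal list 1 alone, with a fold of 17.6 and an FDR of 3.98e-23, rank 423 of 916. It covered 180 bases on chromosome 10, minus strand, from 8314185 to 8314364. Bone cancer pain list 2 had a peak from 8314006 to 8314185, which abutted it with 1 base in common, at a fold of 7.84 and an FDR of 0.127. Bone cancer pain list 1 had a peak from 8498350 to 8654892, at the recurrent fold of 10.6 and an FDR of 0.0562. It lay 184164 bases from the list 2 peak. As deposited, Rbfox1 thus had 2 bone cancer pain lists and 1 normal list. This opposite order depended on counting the list 1 peak. For Rbfox1 and Rbfox2 the exact permutation test of peak number gave p = 1 (n = 3 each).

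Elavl1, Elavl2 and Elavl3 had peaks only outside the limit. Elavl1 had 2 peaks and Elavl2 had 3 in bone cancer pain list 1, all at the fold of 10.6, in a list where 81.1% of the RIP-table genes had a peak as deposited. Elavl3 had a single peak, at 23037340 to 23037587 of chromosome 8 in normal list 2, whose fold was 1.78 and FDR 0.0912. Of the 23 member peaks as deposited, 15 lay outside the limit, and 10 of these came from bone cancer pain list 1.

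Counted as deposited, all 7 members had a peak, as did 90.4% of the RIP-table genes. Bone cancer pain lists 1, 2 and 3 then held 6, 3 and 2 members, against 81.1%, 19.9% and 9.88% of the RIP-table genes. Normal lists 1, 2 and 3 held 2 members each, against 10.5%, 15.6% and 12.6%. Elavl4, Rbfox1, Rbfox2 and Rbfox3 were each in 2 or more bone cancer pain lists (21.6% of the RIP-table genes), and Rbfox3 in all 3 (2.69%) and in 2 normal lists (6.60%). Within the limit, Elavl4 and Rbfox3 alone reached 2 bone cancer pain lists. As deposited 0 members were gained and 0 lost, against 11.3% and 0.738% of the RIP-table genes.

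Of the members with a peak within the limit in at least 2 lists, Rbfox3 had a place shared between lists and Elavl4 did not. A shared place was found for 30.3% of the RIP-table genes with peaks in 2 or more lists, and for 21.9% where 0.5 of the shorter peak had to overlap, as in Rbfox3. As deposited, 3 of 4 such members shared a place (38.1% of genes), namely Rbfox1 by 1 base, Rbfox2 and Rbfox3.

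Other listed RNA-binding protein genes of neurons and of splicing that had a RIP row had low folds as a list. These were less low than those of the Elavl and Rbfox genes. Of 44 listed names 30 had a row, with a median log2 fold of 2.15 in the authors' deposited table, and 26 of the 30 lay below the table's median. The lowest in the authors' deposited table were Nova2 (1.41) and Nova1 (1.64), neuronal splicing regulators, and Msi2 (1.66). The highest were Pum2 (2.73), a translational repressor, Ptbp3 (2.67) and Fxr2 (2.56), a relative of the fragile X protein, in the authors' deposited table. Within the FDR limit, 14 of the 30 (46.7%) had an ac4C peak in any list, against 36.8% of the RIP-table genes and 47.7% of those above the median input signal. Of the list 0 genes were gained and 0 lost, against 1.80% and 1.71% of the RIP-table genes. With peaks as deposited 3 were gained (11.3% of the RIP-table genes), and without bone cancer pain list 3 there was 1 lost gene (2.17% of the RIP-table genes). Most lists were reached by Khdrbs1 (Sam68, a splicing regulator), with 1 bone cancer pain list at a fold of 20.6 and 2 normal lists at 16.3 and 27.9. Fxr2 followed, with a fold of 52.3 in bone cancer pain list 2 and 39.1 in normal list 2. Stau2 (a dendritic RNA transport protein) and Pabpc1 (a poly(A)-binding protein) also had 1 list of each group, and Stau1 had a fold of 296 in normal list 3.

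Messenger RNAs known as Elavl targets that had a RIP row lay evenly about the table's median. The folds of listed genes without a row are not known, so a shift of the whole list cannot be judged. With 14 of 26 listed genes in the table, the median log2 fold was 2.35 in the authors' deposited table, with 7 genes below the table's median and 7 above. Actb (2.92), Sod2 (2.53) and Hif1a (2.52) were highest, and Vegfa (1.68) was among the lowest, in the authors' deposited table. Within the FDR limit 8 of the 14 (57.1%) had a peak, against 36.8% of the RIP-table genes and 47.7% of those above the median input signal. Of the list 0 genes were gained and 1 was lost, against 1.80% and 1.71% of the RIP-table genes. The lost gene was Map1b, a microtubule-associated protein, with peaks of fold 5.0 in normal list 1 and 9.96 in normal list 3; its call ended without either list. Mapt, encoding tau, had folds of 3.68, 52.3 and 36.4 in bone cancer pain lists 1, 2 and 3, against 8.70 and 72.6 in normal lists 2 and 3.

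Transcripts known to be spliced under Rbfox control were often called in the ac4C lists. Of 28 listed genes 27 had a row, with a median RIP log2 fold of 2.41 in the authors' deposited table, 13 of them below the table's median. Within the FDR limit 20 of the 27 (74.1%) had a peak in any list, against 36.8% of the RIP-table genes and 47.7% of those above the median input signal. The lists held 11, 11 and 5 of these 27 genes in bone cancer pain and 6, 5 and 5 in normal rats. The shares of the RIP-table genes were 8.59%, 11.3% and 7.85%, and 8.23%, 9.58% and 9.31%. In at least 2 bone cancer pain lists there were 8 genes, and 4 in at least 2 normal lists. The RIP-table shares were 4.0% and 3.89%, or 6.57% and 6.39% of genes above the median input signal. The median input signal of the list was 9.19, against 3.35 for the table. Transcript length was not analysed, so its part in these counts was not tested.

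Among these Rbfox targets 4 were gained and 0 lost (14.8% gained, against 1.80% of the RIP-table genes and 2.65% of those above the median input signal). With peaks as deposited 5 were gained (18.5%, against 11.3% of the RIP-table genes). Cacna1d, an L-type calcium channel, had folds of 8.09 and 6.53 in bone cancer pain lists 1 and 2, and Camta1, a transcription activator, 9.07 and 62.7 in the same lists. Grin1, the obligatory NMDA receptor subunit, had 13.1 and 1.68 in bone cancer pain lists 2 and 3. The count depended on single lists: 1 gene was gained without bone cancer pain list 1, 0 without list 2, 3 without list 3, and 6 without normal list 3, against 0.646%, 0.484%, 0.876% and 2.36% of the RIP-table genes. Without bone cancer pain list 1 or list 3, 1 gene was also lost, against 2.13% and 2.17% of the RIP-table genes, so that 1 was gained and 1 lost without list 1. Ank3 (ankyrin G, of the axon initial segment) was called in 5 lists, at folds of 212, 52.3 and 13.3 in bone cancer pain lists 1, 2 and 3 and 2.77 and 167 in normal lists 1 and 3. Ank2 had 2 bone cancer pain lists (2.65 and 4.65) and all 3 normal lists (5.83, 1.82 and 11.2). Cacna1a and Scn8a, calcium and sodium channel genes, each had 1 bone cancer pain list and 2 normal lists. The folds were 13.2 in bone cancer pain list 1 and 96.2 and 137 in normal lists 1 and 2 for Cacna1a, and 7.95 in bone cancer pain list 3 and 11.8 and 32.6 in normal lists 1 and 2 for Scn8a. In the RIP, Numb (2.79), Itpr1 (2.68) and Dlg1 (2.64) were highest, and Syn1 (1.51) and Camta1 (1.55) lowest, in the authors' deposited table.

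**Figure D5:**
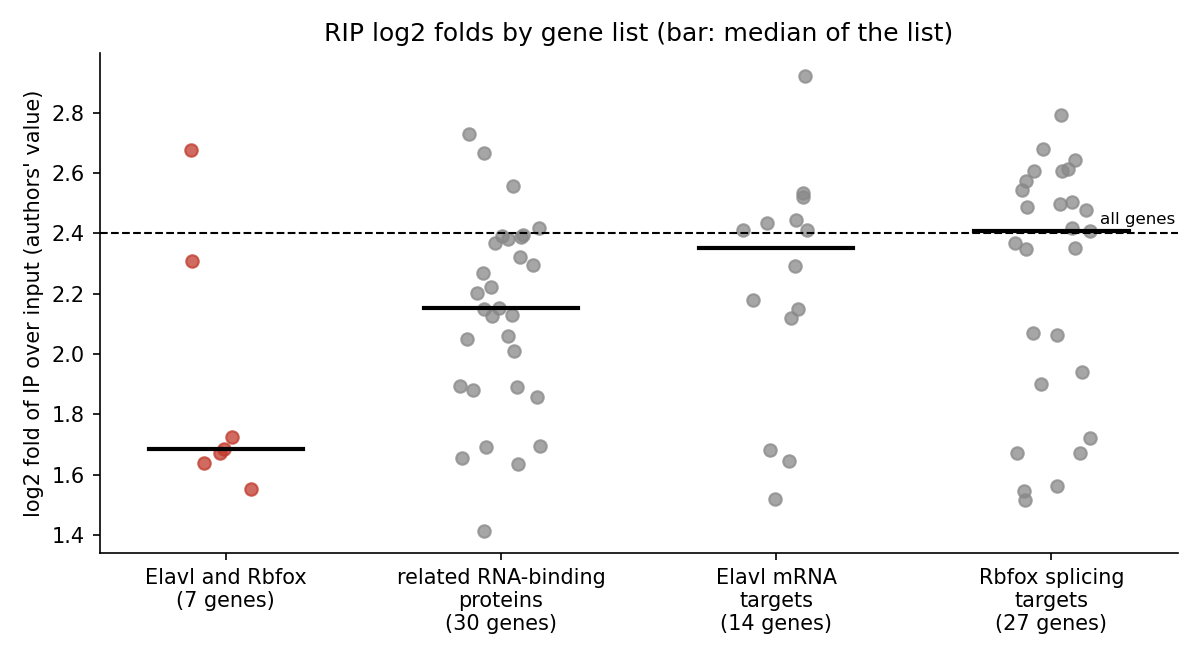
Log2 fold of IP over input (authors' value) of the 7 Elavl and Rbfox genes, 30 related RNA-binding protein genes, 14 Elavl targets and 27 Rbfox targets; each point is 1 gene, bars are list medians and the dashed line is the median of all genes. List medians are 1.69, 2.15, 2.35 and 2.41, and 5 of the 7 members lie near the lower end of the other lists.

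Cell type markers gave the setting for these folds. The median log2 fold in the authors' deposited table was 2.23 for the neuronal markers, 1.96 for excitatory and 2.13 for inhibitory dorsal horn neurons, and 1.64 for motor neurons. Only markers with a row entered these medians, 2 genes for motor neurons. The folds ran from 2.05 to 2.68 for neuronal, 1.21 to 2.71 for excitatory, 1.84 to 2.95 for inhibitory and 1.34 to 1.95 for motor neuron markers. Glial markers had medians of 3.17 (2.98 to 3.56) for oligodendrocytes, 2.44 (1.84 to 2.97) for astrocytes and 3.07 (2.43 to 3.26) for microglia in the authors' deposited table. The other lists had 2.30 for endothelial cells, 2.43 for meningeal fibroblasts, 2.19 for Schwann cells and sensory ganglia and 2.85 for the single blood gene in the authors' deposited table. The part of the cells' origin in the members' folds was not tested.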

How the data were processed

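Per the submitters' processing notes, reads were handled with DESeq2, featureCounts 1.6.3, HOMER 4.10.4, HISAT2 2.1.0 and cutadapt 2.5 on the rn6 build, with the role of each and the peak caller not given in the sources used here. For every peak the authors' lists held, per the file headers, exon blocks, a p-value, a log10 FDR and a fold enrichment, which is the ratio of IP to input. The deposited RIP table gave the authors' log2 fold, p-value and FDR, and a normalised signal per gene and library. Peak starts were converted to 1-based coordinates.

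Members, gene lists and the FDR limit were chosen with earlier results of these data known. Named genes were the members, the genes nearest each member, and from each list the 5 with the most peak lists, the 3 highest and 3 lowest log2 folds and those gained or lost; some genes that this rule names are not reported here. Peak numbers per list were compared by a two-sided exact permutation test over 20 assignments for every gene, with Benjamini-Hochberg adjustment, after checks on simulated data. Peaks shared a place when exon blocks overlapped by at least 1 base on the same strand. Alternatives were peaks as deposited, an FDR of at most 0.01, single lists left out, single RIP pairs, a pseudocount of 1 and a replicate block. Python 3.11.15, pandas 2.3.3, NumPy 2.4.6 and SciPy 1.17.1 were used. The labels call the replicates biological without naming animals, so the permutation p-values measure the spread between these samples. The FDR of a peak belongs to its own list and measures no spread between replicates. The RIP FDR values are the authors' own. No sequence is shown, as no rn6 genome was used here.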

Additional observations from a re-analysis of the deposited data

How the results depend on the processing

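The number of members gained in bone cancer pain was 1 (Elavl4) and became 0 with peaks as deposited, 2 with an FDR of at most 0.01 (Elavl4 and Rbfox3), and 0 when all 3 lists against 0 were required. With single lists left out it ranged from 0 to 2. Members lost stayed at 0 under each of these alternatives. Members with a shared place numbered 1 when 0.5 of the shorter peak had to overlap, as with 1 base, and 3 with peaks as deposited. For Rbfox1 the difference in peaks per list, -0.333 within the limit, was 0.333 with peaks as deposited. That setting also counted its peaks outside the limit in bone cancer pain lists 1 and 2 (FDR 0.0562 and 0.127). The members' median log2 fold, 1.69, was 1.71 in pair 1 and 1.64 in pair 2. With a pseudocount of 1, added after seeing the data, it was 1.62, against a table median of 2.08 in place of 2.40, a difference of -0.46 rather than -0.72.

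Counts of gained and lost genes in the target lists with single peak lists left out were likewise added after seeing the data. Samples of the 2 groups share replicate numbers, but nothing in the labels pairs them. Correlations of same-numbered lists over 3805 genes were -0.00859, 0.00361 and -0.00632. Those of differently numbered lists ran from -0.0164 to 0.0234. The same-numbered values lay within that range, which cannot show whether the samples were paired. With the replicate block, the difference of 0.667 peaks per list gave an exact p of 0.5 for Elavl4 and for Rbfox3, where the smallest possible p is 0.25. No gene passed an adjusted p of 0.05 in the exact permutation test, and 0 genes had an unadjusted p below 0.05, which 3 lists against 3 cannot give. The read depth of the ac4C libraries is unknown, so absence of a peak does not show absence of ac4C.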
